A study of Homo sapiens with 3 samples.

Results

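The integrated stress response and the unfolded protein response were followed through 38 named genes in TC32, an established Ewing sarcoma cell line. The genes were taken by symbol from a fixed list of sensors, transcription factors, targets and endoplasmic reticulum (ER) chaperones. All 38 were found among 22714 gene names, each on 1 locus, and 2 of these loci carry a joined name with a microRNA (HSP90B1 and ATF5). The list falls into 4 sensors, 15 genes of the ATF4 arm and 19 genes of the chaperone arm. RNA sequencing covered 3 libraries, each the only one of its group, so the values carry no replicate error and no test between groups was made. The control is labelled WT Control, the second library carries knockdown of EWS-FLI1, and the third was treated with 3 µM YK-4-279 for 15 hours, with DMSO as the vehicle of the compound. EWS-FLI1 is the fusion transcription factor that drives Ewing sarcoma, and YK-4-279 is a small molecule described as keeping the fusion protein from binding the RNA helicase DHX9. The labels give neither the hairpin and duration of the knockdown nor whether the control received vehicle, and all results rest on 1 cell line.

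Both pathways answer stress by changing protein synthesis. Stress kinases phosphorylate the initiation factor eIF2, general translation falls, and the messenger of the transcription factor ATF4 is then translated better. ATF4 switches on genes of amino acid supply, of feedback and of cell death. Unfolded proteins in the ER also activate IRE1, which splices the messenger of the factor XBP1, and ATF6, which is cut from the membrane. XBP1 and ATF6 switch on chaperones, disulfide isomerases and the machinery that removes misfolded proteins. Gene-level values show neither the splicing of XBP1 nor the translation of ATF4.

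The promoters of the members are shown first, because the factors of the 2 arms are known to bind different elements. Promoter windows from RefSeq (GRCh38.p14), from 250 bases before to 50 bases after a transcript start, matched 36 of the 38 genes. Both strands were searched for the ER stress element ERSE (CCAAT, then 9 bases of any kind, then CCACG), for ERSE-II (ATTGG, then 1 base, then CCACG), for the unfolded protein response element UPRE (TGACGTGG), for the cyclic AMP element CRE (TGACGTCA) and for the core of the C/EBP-ATF element (TGATGNAA). ERSE or ERSE-II stood in the windows of 10 of 18 chaperone-arm genes, of 0 of 14 ATF4-arm genes and of 0 of 4 sensors, against 0.161% of all 27305 symbols with a window. The C/EBP-ATF core stood in 5 of 14 ATF4-arm genes (ATF3, ASNS, CHAC1, CEBPG and PPP1R15B) and in 1 of 18 chaperone-arm genes (HERPUD1), against 4.46% of all symbols. UPRE was found in HYOU1 and CRE in PPP1R15A, against 0.927% and 2.25% of all symbols. A match is a description of letters and not a bound site. The arms were listed from known roles in these pathways, so the shares are not independent evidence about the members. The stretches below lie before the transcript start, read 5′ to 3′ on the strand of the gene, with the matched letters in capitals. A match on the other strand appears as its reverse complement, such as TTGCATCA for the C/EBP-ATF core.
HSPA5 (ERSE, minus strand, chr9:125241371-125241429): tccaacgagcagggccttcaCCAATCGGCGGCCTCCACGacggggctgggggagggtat
HSP90B1 (ERSE on each strand, plus strand, chr12:103930196-103930359): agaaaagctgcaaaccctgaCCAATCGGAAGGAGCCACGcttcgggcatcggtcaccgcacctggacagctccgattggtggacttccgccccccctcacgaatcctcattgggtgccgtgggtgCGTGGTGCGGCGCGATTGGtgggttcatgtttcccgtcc
HYOU1 (UPRE overlapping ERSE-II, then ERSE-II, minus strand, chr11:119057254-119057413): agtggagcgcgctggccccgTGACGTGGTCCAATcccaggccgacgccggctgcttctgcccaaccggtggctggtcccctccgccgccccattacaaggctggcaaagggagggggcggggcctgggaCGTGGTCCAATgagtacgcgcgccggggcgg
HERPUD1 (C/EBP-ATF core, then ERSE-II, plus strand, chr16:56931946-56932055): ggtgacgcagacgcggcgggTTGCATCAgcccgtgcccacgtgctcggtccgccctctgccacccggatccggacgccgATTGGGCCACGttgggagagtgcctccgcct
XBP1 (ERSE, minus strand, chr22:28800583-28800641): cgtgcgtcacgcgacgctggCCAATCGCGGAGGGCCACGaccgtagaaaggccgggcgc
CRELD2 (ERSE, plus strand, chr22:49918534-49918592): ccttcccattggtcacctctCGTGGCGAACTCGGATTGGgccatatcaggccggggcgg
PDIA6 (ERSE, minus strand, chr2:10812833-10812891): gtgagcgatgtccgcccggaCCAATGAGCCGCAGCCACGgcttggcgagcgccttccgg
ATF3 (C/EBP-ATF core, plus strand, chr1:212565196-212565243): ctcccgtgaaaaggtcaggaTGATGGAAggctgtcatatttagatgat
ASNS (C/EBP-ATF core, minus strand, chr7:97872449-97872496): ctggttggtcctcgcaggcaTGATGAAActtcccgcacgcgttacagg
CHAC1 (C/EBP-ATF core, plus strand, chr15:40953242-40953289): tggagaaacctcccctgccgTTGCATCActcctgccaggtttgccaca

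**Figure D1:**
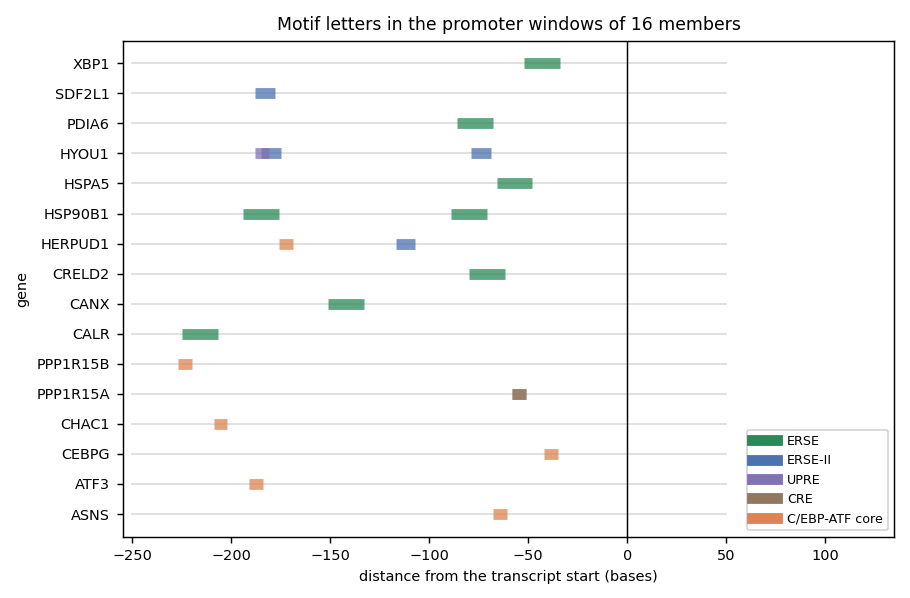
Position of the motif letters in the promoter windows of the 16 members that hold any, against the distance in bases from the transcript start. Bars are matches on either strand, coloured by motif. ERSE and ERSE-II appear in 10 chaperone-arm genes, and the C/EBP-ATF core in 5 genes of the ATF4 arm and in HERPUD1. For CANX, which has several starts, 1 window is drawn.

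The deposited values are FPKM, fragments relative to the length of the locus and to the depth of the library. They differ in overall scale: relative to the control, the median compared gene was 4.37-fold lower after knockdown and 6.32-fold lower with YK-4-279. Levels are therefore given as scaled FPKM, after multiplication by 0.326 (control), 1.43 (knockdown) and 2.11 (YK-4-279). This puts the median log2 ratio of compared genes between libraries near 0, while their median levels are 5.03, 6.09 and 5.06. A change common to all messenger RNA cannot be seen on this scale. A relative log2 ratio is the difference of log2(scaled FPKM + 1), which understates the change of scarce genes, and higher or lower means an absolute ratio of at least 1, a 2-fold difference. The 9729 names with a mean scaled FPKM of at least 1 were compared. The fragments estimated over the 8981 of them with a known transcript length were about 25617100, 16050500 and 19658200 for control, knockdown and YK-4-279. Standard errors (SE) come from such estimates and cover counting error only. The 1 added to the scaled FPKM also shrinks the SE of scarce genes, so a small SE there does not mean many fragments. FLI1, the part of the fusion that the knockdown should remove, had 21.5, 2.12 and 17.5 scaled FPKM in the control, knockdown and YK-4-279 libraries. Of the other Ewing markers, NR0B1 had 38.1, 4.71 and 49.3 scaled FPKM and STEAP1 178, 30.6 and 148, while CD99 is listed at 0 in all 3 libraries. Only NKX2-2 stood above its control after knockdown, with 0.856, 1.49 and 1.37 scaled FPKM. The summed level of the 10 Ewing markers was 383, 116 and 345, so it moved with the knockdown library. Its part in the stress genes was not tested.

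**Figure D2:**
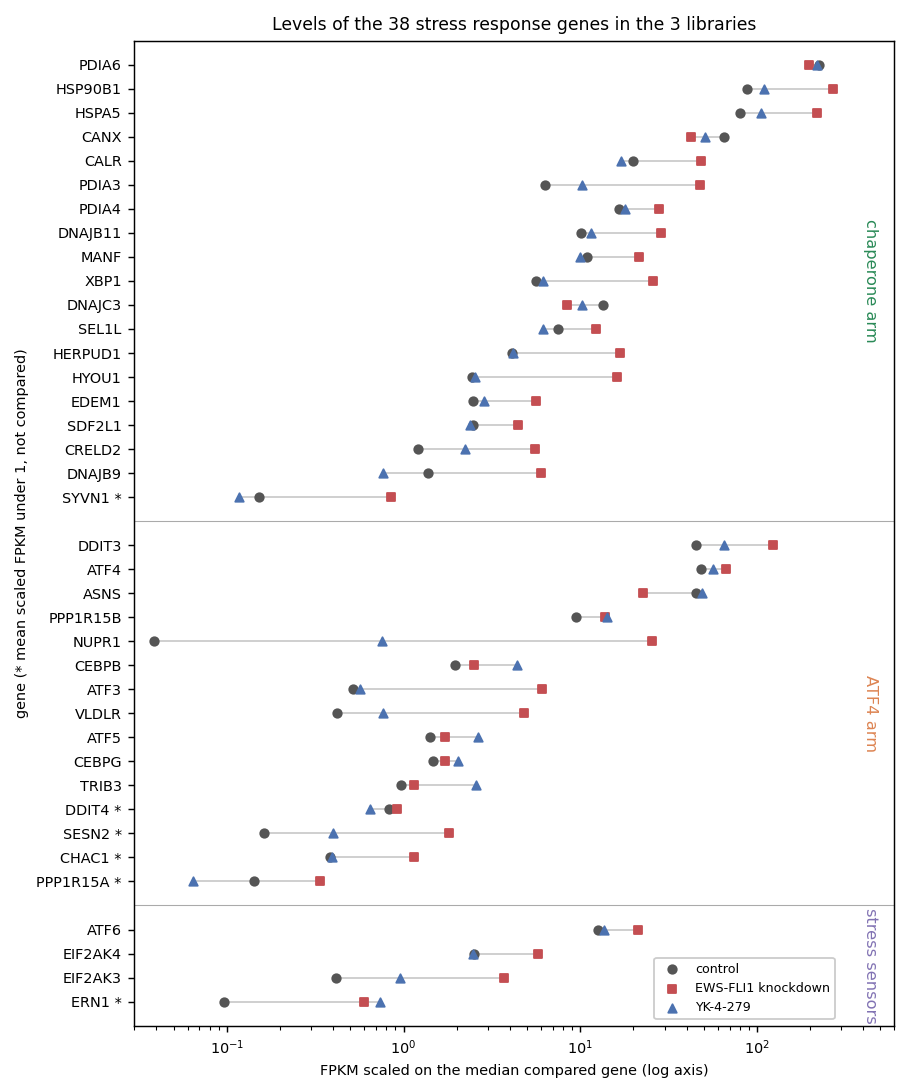
Scaled FPKM (horizontal log axis) of each of the 38 genes in the control (circles), knockdown (squares) and YK-4-279 (triangles) libraries, grouped by role and sorted by mean. Each point is 1 library. The knockdown library gives the highest value for 28 genes and the control for 3. The matching shares of all names were not counted.

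After EWS-FLI1 knockdown, 10 ER chaperone and quality control genes and 4 genes of the ATF4 arm were higher than in the control. Among the 32 compared members, 15 were higher and 0 lower, against 18.5% higher and 17.7% lower among all 9729 compared names. The chaperone arm had 10 of 18 higher with a median relative log2 ratio of 1.32, the ATF4 arm 4 of 11 with a median of 0.48, and the sensors 1 of 3, while the median of all compared names was 0.0099. Without any filter, the knockdown library held the highest scaled value of the 3 for 16 of 19 chaperone-arm genes, 9 of 15 ATF4-arm genes and 3 of 4 sensors. The share of all names that were highest there was not counted, so these counts only describe the members. Passing the filter only through the knockdown library favours a high knockdown ratio, and 570 of 856 such names were higher. EIF2AK3, ATF3, VLDLR and NUPR1 passed in that way. Leaving them out, 11 of 28 members were higher, against 14.1% of the 8667 names that did not pass through 1 library alone. Of these 11, 10 were chaperone-arm genes, and the ATF4 arm kept 1 of 8 (DDIT3) with a median of 0.22.

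Sensors come first in the pathway. EIF2AK3 encodes PERK, the ER kinase of eIF2, and had 0.416, 3.70 and 0.959 scaled FPKM, in the order control, knockdown and YK-4-279 used throughout. Its ratio after knockdown was 1.73 (SE 0.06), the only one among the sensors past the threshold. EIF2AK4 encodes GCN2, the eIF2 kinase that senses uncharged tRNA, and had 2.49, 5.75 and 2.46 scaled FPKM, a knockdown ratio of 0.95. ATF6, the membrane-bound factor cut during ER stress, had 12.6, 21.3 and 13.6 scaled FPKM, a ratio of 0.72. For both genes the knockdown library stood above the other two, which lay close together. ERN1, which encodes IRE1, was not compared, with 0.0963, 0.597 and 0.733 scaled FPKM and about 23 control fragments.

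In the ATF4 arm the factor itself did not pass the threshold after knockdown. ATF4 had 48.0 scaled FPKM in the control, 67.2 after knockdown and 56.3 with YK-4-279, a knockdown ratio of 0.48. DDIT3 encodes CHOP, the death-promoting factor downstream of ATF4, and had 44.9, 123 and 64.9 scaled FPKM, with a knockdown ratio of 1.43 (SE 0.04). NUPR1, a small stress-induced nuclear protein, had 0.0385, 25.6 and 0.759 scaled FPKM. Its knockdown ratio was 4.68 (SE 0.03), on about 6 control fragments and 3254 after knockdown. That SE is shrunk by the 1 added to the low control value. Both treated libraries lay above the control for NUPR1, the knockdown library by far the most.

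ATF3, a stress-induced repressor and activator that acts with ATF4 and CHOP, had 0.515, 6.10 and 0.570 scaled FPKM, a knockdown ratio of 2.23 (SE 0.14) on about 19 control fragments. VLDLR, a lipoprotein receptor induced through PERK and ATF4, had 0.423, 4.83 and 0.761, a ratio of 2.03 (SE 0.07). In both, the knockdown library stood apart and the YK-4-279 library was near the control. ASNS, the asparagine synthetase and a classical ATF4 target, had 45.2 scaled FPKM in the control, 22.6 after knockdown and 48.6 with YK-4-279. Its knockdown ratio of -0.97 (SE 0.04) fell just short of the threshold.

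The remaining compared genes of the arm lay between 0.12 and 0.50 after knockdown. TRIB3, a pseudokinase that feeds back on ATF4, had 0.974, 1.14 and 2.58 scaled FPKM. CEBPB and CEBPG, partner factors of ATF4, had 1.95, 2.51 and 4.37 and 1.47, 1.71 and 2.05 scaled FPKM, and ATF5, a related factor, had 1.41, 1.72 and 2.65. For these 4 genes the highest value was with YK-4-279, not after knockdown. PPP1R15B, the constitutive subunit that lets eIF2 be dephosphorylated, had 9.501, 13.8 and 14.2 scaled FPKM.

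Another 4 genes of the arm had a mean under 1 and were not compared. SESN2, a stress-induced regulator of mTORC1, had 0.163, 1.82 and 0.397 scaled FPKM, and CHAC1, which degrades glutathione, had 0.383, 1.15 and 0.391. DDIT4, an inhibitor of mTORC1, had 0.823, 0.921 and 0.650. PPP1R15A, the inducible counterpart of PPP1R15B, had 0.142, 0.338 and 0.0643, and rested on about 14, 29 and 5 estimated fragments. SESN2 and CHAC1 were highest after knockdown, on about 27 and 26 control fragments.

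In the chaperone arm, HSPA5, HSP90B1, HYOU1, DNAJB11, DNAJB9 and CALR were among the 10 genes higher after knockdown. HSPA5 encodes BiP, the Hsp70 chaperone of the ER, and had 80.7, 218 and 106 scaled FPKM, a knockdown ratio of 1.43 (SE 0.01). HSP90B1, the ER Hsp90, had 87.6, 269 and 110 scaled FPKM, a ratio of 1.61 (SE 0.02). In both genes the knockdown value was more than 2 times that of either other library. HYOU1, the large ER Hsp70 that exchanges nucleotide on BiP, had 2.44, 16.1 and 2.55 scaled FPKM, a ratio of 2.31 (SE 0.09). DNAJB11 and DNAJB9, J-domain partners of BiP, had knockdown ratios of 1.41 and 1.55. DNAJB11 had 10.1, 28.6 and 11.4 scaled FPKM, and DNAJB9 had 1.38, 5.97 and 0.767. CALR, the calcium-binding lectin chaperone calreticulin, had 19.9, 48.0 and 17.0 scaled FPKM, a ratio of 1.23.

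Disulfide isomerases were uneven. PDIA3, the isomerase that works with calreticulin and calnexin, had 6.28, 47.7 and 10.3 scaled FPKM and the highest knockdown ratio of the arm, 2.74 (SE 0.04). PDIA4 had 16.6, 27.9 and 17.98 scaled FPKM, a ratio of 0.71, and PDIA6, the most abundant member in the control, had 225, 197 and 220, a ratio of -0.19. For PDIA3 the knockdown library stood far above the others, and for PDIA6 the 3 libraries lay close together. CRELD2 and MANF, secreted ER stress proteins, had ratios of 1.56 and 0.91. CRELD2 had 1.21, 5.52 and 2.23 scaled FPKM, and MANF had 10.9, 21.4 and 9.91. SDF2L1, a lumenal partner of DNAJB11, was at 0.64.

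XBP1 was higher too, with 5.61 scaled FPKM in the control, 26.0 after knockdown and 6.15 with YK-4-279, a knockdown ratio of 2.03 (SE 0.06). HERPUD1, a membrane protein of ER-associated degradation, had 4.11, 16.8 and 4.17 scaled FPKM, a ratio of 1.796 (SE 0.11). In both, the control and YK-4-279 libraries nearly coincided and the knockdown library stood alone. EDEM1, which delivers glycoproteins to degradation, and SEL1L, a scaffold of the degradation complex, had ratios of 0.93 and 0.65. SYVN1, the ubiquitin ligase of that complex, was not compared, with 0.153, 0.855 and 0.118 scaled FPKM. CANX, the membrane lectin chaperone calnexin, and DNAJC3, an inhibitor of PERK, stood below the control after knockdown, without passing the threshold. CANX had 65.5, 42.4 and 50.6 scaled FPKM, a ratio of -0.62, and DNAJC3 had 13.5, 8.41 and 10.2, also -0.62.

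Genes of the arm with and without the promoter elements overlapped in their ratios. Of the 10 chaperone-arm genes with ERSE or ERSE-II, 7 were higher after knockdown, with ratios from -0.62 to 2.31 and a median of 1.49. The 7 compared genes with a window and neither element had 2 higher and a median of 0.91. PDIA3, the remaining higher gene, has no window and stands in neither group. PDIA6 and CANX, which hold ERSE, and SDF2L1, which holds ERSE-II, were not higher.

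**Figure D3:**
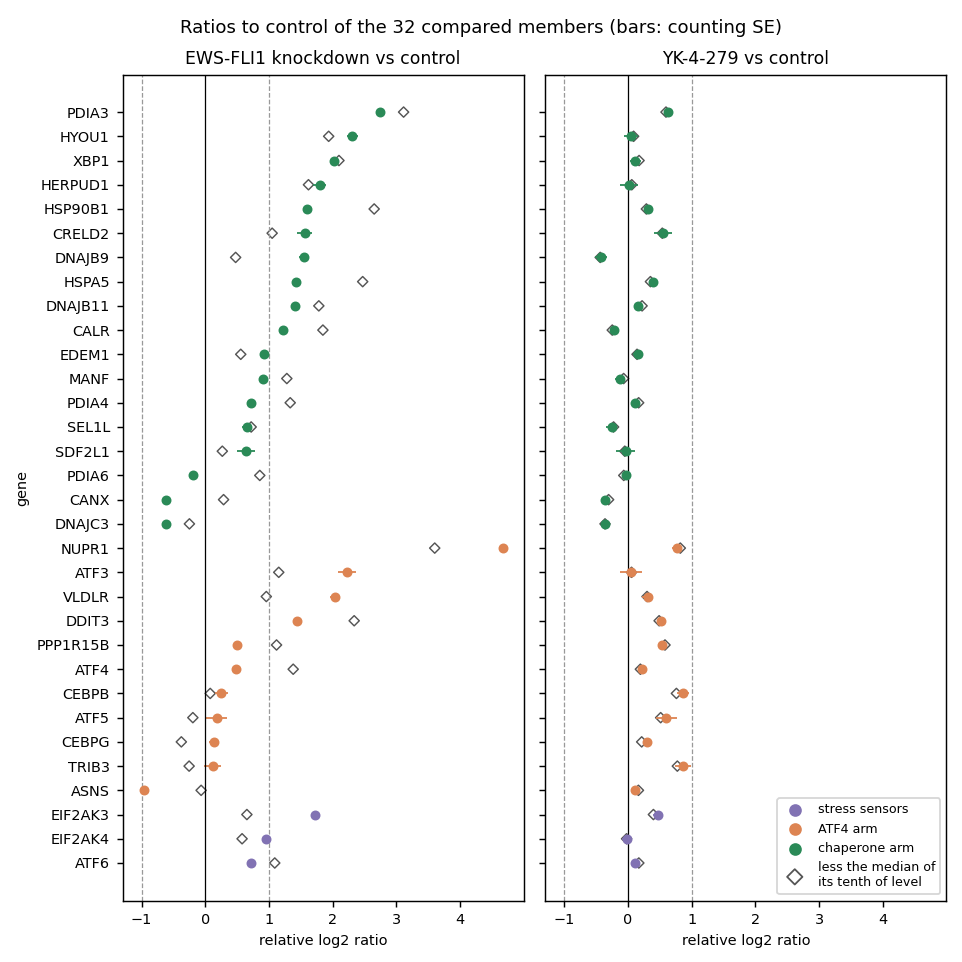
Relative log2 ratio to control of the 32 compared members after knockdown (left) and with YK-4-279 (right), with bars for the counting SE and open diamonds for the ratio less the median of genes at the same level. Dashed lines mark -1 and 1. After knockdown 15 filled points lie beyond 1, and with YK-4-279 none of the 32 lies beyond either line.

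Level moved with the ratio in the knockdown library. Ranked into 10 equal groups by level in the YK-4-279 library, which is outside this comparison, the median knockdown ratio of all compared genes went from 1.07 in the scarcest group to -1.05 in the most abundant. HSPA5 and HSP90B1 belong to the most abundant group, where 31 of 973 genes (3.19%) were higher. Less the median of their group, their ratios were 2.47 and 2.65, PDIA3 stood at 3.12, XBP1 at 2.10, DDIT3 at 2.34 and ATF4 at 1.38. On the same footing EIF2AK3, DNAJB9 and VLDLR were no longer past the threshold, at 0.65, 0.48 and 0.96, ASNS was at -0.06 and CANX at 0.29. EIF2AK3, DNAJB9 and VLDLR lie in the scarcest group, whose median level was 0.842 scaled FPKM. A name under 1 in the YK-4-279 library passed the filter only if control and knockdown averaged above 1. The median taken off in that group therefore also carries the filter. The chaperone arm then had 11 of 18 higher and a median of 1.31, against 1318 of 9729 names higher. The 8 genes of the ATF4 arm that did not pass through the knockdown library alone had 3 higher and a median of 0.0073. Whether the trend with level is technical was not tested.

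**Figure D4:**
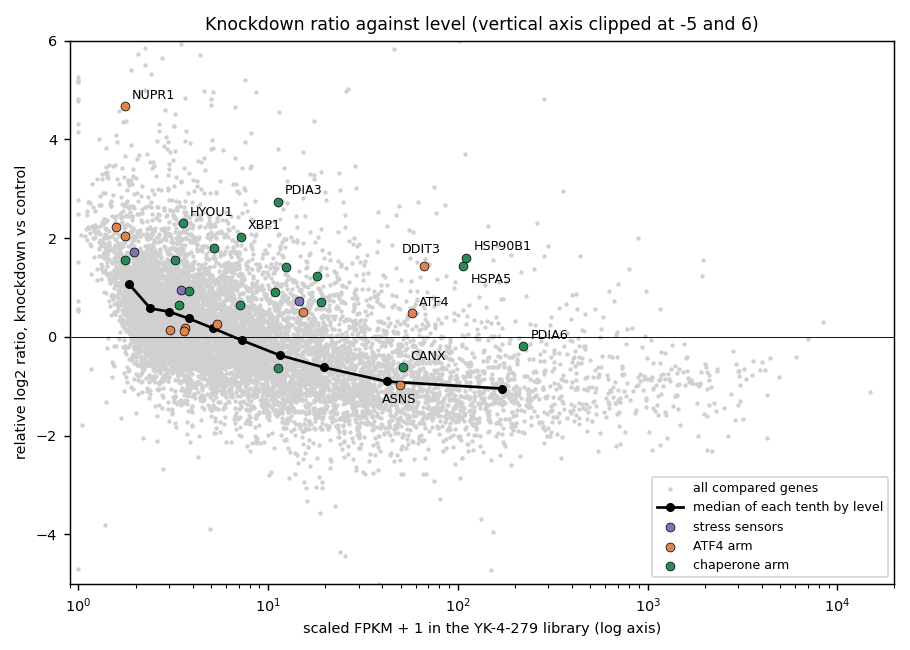
Relative log2 ratio after knockdown against scaled FPKM + 1 in the YK-4-279 library (log axis) for the compared genes within the plotted range of -5 to 6 (grey) and the members (coloured by role), with the medians of the 10 groups by level joined by a line. HSPA5, HSP90B1, DDIT3 and PDIA3 lie well above the line at their level, and ASNS lies on it.

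The scale also matters for the abundant members. When every named gene above 0 sets the scale, scarce ones included, the median compared gene lies at -0.52 after knockdown. HSPA5, HSP90B1, CALR, DNAJB11 and DDIT3 then have ratios of 0.78, 0.96, 0.60, 0.80 and 0.79, above that median but short of the threshold, and ASNS, CANX and DNAJC3 pass it on the lower side at -1.60, -1.26 and -1.22. The median of the ATF4 arm is then -0.16 and that of the chaperone arm 0.69. With the deposited FPKM unscaled, 7 of the 15 higher members are below the control and the medians are -1.27 and -0.75. The median of all compared names is then -1.78. Fibroblast markers moved with the knockdown library as well: their summed scaled level over 9 genes was 28.04, 172 and 33.2, with 4, 7 and 6 of them above 1, and the merged locus holding COL3A1 was at 1.13, 111 and 3.40. DCN was lower at 8.86, 1.69 and 5.75, endothelial and blood markers summed to at most 1.996 in any library, with CD3E at 0 in all 3, and 5 epithelial markers summed to 2.54, 6.53 and 6.28. All 3 libraries are of the TC32 line. The part of these markers in the stress genes was not tested, and bulk RNA does not show whether all cells or only some changed.

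Other genes of the 2 pathways came from lists written from general knowledge. Of 55 compared genes of ER folding, translocation and degradation, 19 were higher and 5 lower after knockdown, with a median of 0.59, against 18.5% and 17.7% of all names. Less the level trend, 23 were higher and 0 lower, with a median of 0.86, against 1318 higher and 858 lower of all 9729 names. P4HB, the founding disulfide isomerase, had 4.69, 28.3 and 7.26 scaled FPKM (2.37). The lowest were the merged locus holding TXNDC5, a lumenal thioredoxin, at -1.63 and SRP9, a subunit of the signal recognition particle, at -1.52. Of 42 compared genes around eIF2 and ATF4, 8 were higher and 9 lower, shares near those of all names, and the median was -0.22. Less the level trend, 8 were higher and 3 lower, against the same 1318 and 858 of 9729 names, and the median turned to 0.34. TNFRSF10B, a death receptor that CHOP induces, had 4.48, 35.9 and 7.50 scaled FPKM (2.75). STC2, a secreted stanniocalcin, was next at 1.67, with 0.142, 2.63 and 0.347. It passed the filter only through the knockdown library, which favours a high ratio. Each of the 2 lists holds 1 such gene among its higher ones. EIF4EBP1, the translation repressor 4E-BP1, had 54.6, 10.6 and 9.75 (-2.26), and PSAT1, an aminotransferase of serine synthesis, had 157, 42.5 and 123 (-1.86).

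**Figure D5:**
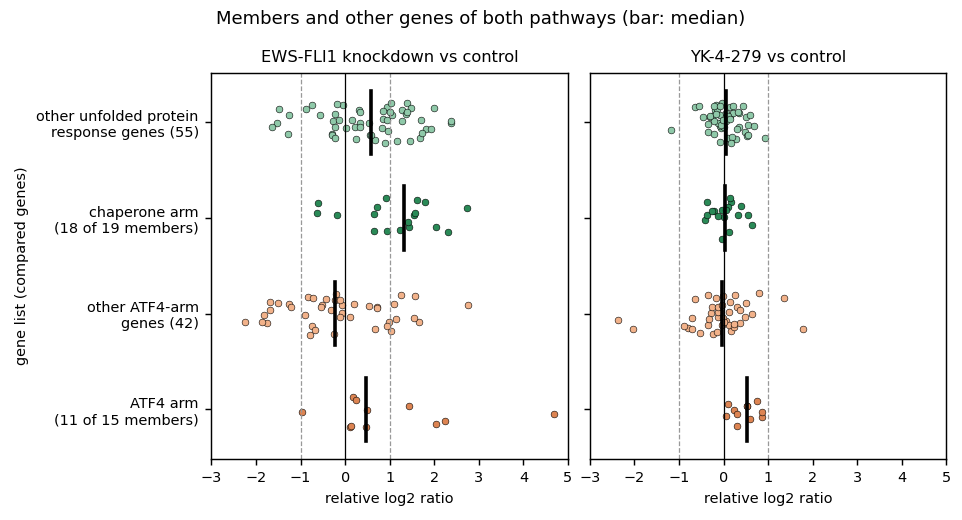
Relative log2 ratios after knockdown (left) and with YK-4-279 (right) for the compared members of both arms and for the other listed genes of each pathway, 1 point per gene, with a bar at the median. After knockdown the medians are 0.48 and -0.22 for the ATF4 lists and 1.32 and 0.59 for the folding lists. Without the 3 members that passed only through the knockdown library the ATF4 arm is at 0.22. Unscaled values put the knockdown medians of both arms below 0, with the median of all compared names at -1.78.

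With YK-4-279 none of the 32 compared members was higher or lower than in the control. Among all 9729 names 2.7% were higher and 1.74% lower, so a count of 0 of 32 is near the background. The chaperone arm had a median relative log2 ratio of 0.03 and a range from -0.43 to 0.63, with 10 of 18 genes above 0. The ATF4 arm was above 0 in 11 of 11 compared genes, against 52.8% of all compared names. Its ratios ranged from 0.05 to 0.86, with a median of 0.52. That median became 0.07 with the scale over every named gene and -1.24 unscaled. On those 2 scales the medians of all compared names were -0.39 and -2.22. ASNS and ATF4 were below 0 with centred ratios, at -0.32 and -0.20, and with every named gene as scale, at -0.40 and -0.27. On the latter scale ATF3 and CEBPG were below 0 too, at -0.13 and -0.02. Of the genes of the arm that were not compared, DDIT4 was at -0.14 and PPP1R15A at -0.10. No replicate spread is at hand to judge a shift of that size.

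TRIB3 and CEBPB were the highest of the ATF4 arm with YK-4-279, each at 0.86, with SEs of 0.13 and 0.10. NUPR1 followed at 0.76 (SE 0.07), and with a pseudocount of 0.1 in place of 1 it was at 2.63, TRIB3 at 1.32, CEBPB at 1.13 and EIF2AK3 at 1.04. These genes are scarce, at most 4.37 scaled FPKM in both libraries. With that pseudocount 715 of all 9729 names were higher, against 263 as reported. DDIT3 stood at 0.52, ATF4 at 0.23, ATF3 at 0.05 and ASNS at 0.10. In the chaperone arm PDIA3 was highest at 0.63 and CRELD2 next at 0.55, HSPA5 was at 0.38 and HSP90B1 at 0.32. DNAJB9 was lowest at -0.43, CANX was at -0.37 and DNAJC3 at -0.36. XBP1, HERPUD1 and HYOU1, all higher after knockdown, were at 0.11, 0.01 and 0.04.

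Among the other listed genes with YK-4-279, 2 of 42 around eIF2 and ATF4 were higher and 2 lower, counts close to the 2.7% and 1.74% of all names. The higher pair were the subunits of the large neutral amino acid transporter, SLC7A5 at 1.03 and 5.98 scaled FPKM in the control and YK-4-279 libraries (1.78) and SLC3A2 at 7.25 and 20.1 (1.35). EIF4EBP1 and SHMT2, the mitochondrial serine hydroxymethyltransferase, were lower at -2.37 and -2.03. Of the 55 folding genes, 0 were higher and 1 was lower, ATF6B, the paralogue of ATF6, with 13.6 scaled FPKM in the control, 37.1 after knockdown and 5.42 with YK-4-279 (-1.18). The comparison uses the same control library as the knockdown, so the ratios are not independent.

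Set directly against the knockdown library, the YK-4-279 library had 15 of the 32 compared members lower and 1 higher, against 15.3% lower and 15.8% higher among all compared names. The lower genes were 11 of the chaperone arm, 3 of the ATF4 arm and EIF2AK3. The last 4 passed the filter only through the knockdown library, which favours a lower value with YK-4-279. Without them 11 of 28 members were lower and 1 higher. Of the 8667 names that did not pass through 1 library alone, 12.1% were lower and 17.0% higher. The ATF4 arm then had 0 lower and a median of 0.29. NUPR1 stood at -3.92, HYOU1 at -2.27, ATF3 at -2.18 and PDIA3 at -2.11, while HSPA5 and HSP90B1 stood at -1.04 and -1.29. ASNS was the 1 higher gene at 1.07, and at 0.31 less the median of its group by level. The median of the chaperone arm was -1.04 and that of the ATF4 arm 0.04, from -0.46 to 0.17 under the other settings. Both libraries entered the comparisons above, so these values restate the same levels from the other side.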

How the data were processed

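RNA of 3 TC32 libraries was analysed, 1 per group as the labels give them. Per the labels' protocols, cDNA was made with a PCR-based SMARTer kit, and no molecular identifiers are named, so fragments are not independent molecules. The authors deposited FPKM for 88434 loci, of which 24751 carry a gene name. Reads went through CASAVA 1.8.2, TopHat and Cufflinks 2.2.1 with GRCh37 (hg19), per the submitters' processing notes. The annotation, use of strand and scaling between libraries are not stated there. The knockdown column carries the heading dEF, against shEF in the title, and the group follows the labels.

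Loci of 1 name were summed. Each library was divided by the median of its ratios to the geometric mean, over names above 0 in all 3 libraries with a mean scaled FPKM of at least 1. The written plan did not limit that set to compared names. The limit was chosen after seeing the data, because without it the median compared gene lay at -0.52 and -0.39, and the planned set is given as an alternative. A pseudocount of 1 was added. A fold of 2 was called higher or lower, with no test. The worth of 1 fragment was read from the lowest steps of olfactory receptor genes (0.0648, 0.0166 and 0.0125 FPKM per kilobase), and transcript lengths came from GENCODE release 29. Scaling, calls and trend removal were tested on simulated data. The data for scaling and calls held balanced changes and no trend with level, so they do not cover the trend seen here. Python 3.11.15 and pandas 2.3.3 were used. By the rule for naming, every member past the threshold is given with its values, and the others by examples of every role. Alternatives were other pseudocounts, filters, scales, merged loci left out, and trends with level, length and GC content. Members, lists and tests were chosen with earlier results of these data known. The protein ends planned for description were not used here. Counts without the names that passed the filter through 1 library alone were added after seeing the data. The values of 1 gene of the other lists are not reported here.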

Additional observations from a re-analysis of the deposited data

How the results depend on the processing

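Alternatives were a pseudocount of 0.1, other filters, other scales, merged loci left out, and ratios less a trend with level or with level, length and GC content. After knockdown, the deposited FPKM without scaling gave medians of -0.75 for the chaperone arm and -1.27 for the ATF4 arm, and ratios of -0.85 for CALR, -0.68 for DDIT3, -0.61 for DNAJB11, -0.015 for DNAJB9, -0.10 for HERPUD1, -0.52 for HSP90B1 and -0.696 for HSPA5. It left 2 members higher and 15 lower, against 15 and 0 as reported, and the median of all compared names was -1.78. With YK-4-279 the unscaled values gave medians of -2.303 and -1.24 for the chaperone and ATF4 arms and 28 members lower. The median of all compared names was then -2.22. The scale over every named gene above 0 gave knockdown medians of 0.69 for the chaperone arm and -0.16 for the ATF4 arm. All compared names had a median of -0.52 on that scale, and 10 members were higher and 3 lower. With YK-4-279, 4 members were higher with a pseudocount of 0.1 and 7 with deposited ratios centred on their median, against 0 as reported. Beyond these, the 6 medians moved by less than 1.5-fold and the number past the threshold in either direction, after knockdown and between the treated libraries, by at most 1.5 times. CALR was no longer past the threshold after knockdown with centred ratios (0.93), nor were ATF3 (0.97) and CRELD2 (0.995) less the fit on level, length and GC content. Among all compared names, 1801 higher and 1721 lower after knockdown became 2514 and 950 with the upper quartile as scale, 939 and 3340 with every named gene, and 343 and 6899 unscaled. With YK-4-279, 263 and 169 became 715 and 272 with a pseudocount of 0.1 and 1276 and 425 with centred ratios. They became 175 and 806 with every named gene, and 68 and 8856 unscaled. Between the treated libraries, 1538 and 1486 became 1083 and 2004 with the upper quartile, 1830 and 1178 with every named gene, and 514 and 2190 unscaled. No paired analysis was possible because each group has 1 library, and for the same reason no library could be left out in turn. Depth limits ERN1, SYVN1, ATF3, PPP1R15A and NUPR1 in the control, each at about 23 estimated fragments or fewer.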

Other observations

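Functional subsets of the other listed genes were grouped after their values were seen, so their values are a description. Among all compared names, 18.5% were higher and 17.7% lower after knockdown. Less the median of their level, 1318 of 9729 names were higher and 858 lower. After knockdown the 6 enzymes of serine synthesis and one-carbon metabolism, common ATF4 targets, had ratios from -1.86 to -0.25 and a median of -1.26, and less the median of their level the median was -0.73. The 10 tRNA synthetases had 1 lower and 0 higher, with a median of -0.49 that became 0.44 less the median of their level. Of 6 subunits of eIF2 and its exchange factor eIF2B, 4 were lower and EIF2B2 was higher at 1.25, and less the median of their level 0 were lower and 1 higher. The 3 KDEL receptors, which return escaped chaperones to the ER, were at 1.82 for KDELR1, 1.92 for KDELR2 and 0.54 for KDELR3. The 14 genes of the translocon, signal peptidase and signal recognition particle had 4 higher and 2 lower, with TRAM1 at 1.98, SEC61G at -1.29 and a median of -0.06. Less the median of their level, 7 were higher and 0 lower, with a median of 0.99. With YK-4-279 SHMT2 (-2.03) was the only gene of these subsets past the threshold.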
